A study of Mus musculus with 26 samples.

Results

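The genes described here encode the proteins of the cytoplasmic ribosome, except *Rps4l*, which met the rule by its symbol but is a transcribed pseudogene in RefSeq. A gene was included when a probe set of the array carried a single platform symbol made of Rpl or Rps, a number and at most a letter with an x or l suffix, and *Rplp0*, *Rplp1*, *Rplp2* and *Rpsa* were added, while pseudogene symbols and the S6 kinases stayed outside. Where a gene had several such probe sets, the one with the highest mean signal stood for it. The rule gave 59 genes of 19938 with a single-symbol probe set, of which 37 belong to the large subunit, the 3 stalk proteins included, and 22 to the small subunit. A further 17 genes with symbols of this kind (*Rpl3*, *Rpl11*, *Rpl13a*, *Rpl15*, *Rpl17*, *Rpl31*, *Rpl32*, *Rpl35*, *Rpl35a*, *Rpl36al*, *Rpl37*, *Rpl39*, *Rps16*, *Rps23*, *Rps24*, *Rps26* and *Rps27*) were present only on probe sets that name several genes, and they were not used.

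The study followed neurospheres (NSPs), floating cultures of neural stem cells from the embryonic ventricular zone (C57BL/6J mice, E14), as they attached to coated plates and became astrocytes. Total RNA was hybridised to 26 Affymetrix mouse gene arrays, and the deposited values are log2 signals. Untreated cells were kept in DMEM with 10% fetal bovine serum (FBS) and collected at 0, 6, 24, 48 and 72 h. TNF-treated cells had the same medium with TNF at 50 ng/ml and were collected at 6, 24, 48 and 72 h. Each group held 3 biological replicates, except TNF-treated cells at 72 h, which held 2. No label names a genetic change in any group, and all groups are labelled as serum cultures, those of 0 h included. The paper describes growth of NSPs in a medium with EGF before differentiation in serum. Time in untreated cells is thus also time in serum, on the plate and out of the EGF medium, and these cannot be told apart. The astrocyte label was checked on *Gfap*, an astrocyte intermediate filament gene. Its log2 signal over the 3 replicates was between 8.20 and 9.81 at 0 h and between 13.34 and 13.73 in untreated cells after 72 h. *Gfap* is 1 of 10 astrocyte markers, which did not all rise. Of the 10, 6 were above 0 and 4 below at 72 h against 0 h, with a median log2 change of 0.21. Of these, 4 were called higher and 1 lower (12.6% and 10.2% of all probe sets).

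Ribosomal proteins assemble with ribosomal RNA in the nucleolus into a small subunit, which decodes the mRNA, and a large subunit, which forms the peptide bond. Their genes are among the most strongly transcribed of any cell, and the demand for new ribosomes follows growth and division. Many of their mRNAs start with a C followed by a run of pyrimidines, the 5′ terminal oligopyrimidine (TOP) tract, through which their translation responds to the kinase mTORC1 and the RNA-binding protein LARP1. Outside the ribosome, some of these proteins bind the p53 regulator Mdm2 when ribosome assembly is disturbed.

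Pyrimidine runs of this kind were searched near the annotated starts in the RefSeq promoters of the build GRCm38.p6, which had an entry for 47 of the 59 genes. The following windows hold 15 bases before and 15 bases from the annotated start onward, 5′ to 3′ on the gene's own strand, with the pyrimidine run in capitals. They are shown because they set genes whose mRNA fell beside genes whose mRNA did not pass the test, with a run present in both kinds. In *Rpl13* the run ends before the annotated start and so lies outside the annotated mRNA, while in the other 5 windows with a run it reaches or crosses the start.
Rpl13, chr8:123102335-123102364, plus strand: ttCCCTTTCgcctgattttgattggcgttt
Rps18, chr17:33955651-33955680, minus strand: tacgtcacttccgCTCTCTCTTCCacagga
Rpl27a, chr7:109519180-109519209, plus strand: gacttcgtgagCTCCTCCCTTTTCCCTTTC
Rpl7a, chr2:26910792-26910821, plus strand: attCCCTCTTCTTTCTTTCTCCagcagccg
Rps6, chr4:86857353-86857382, minus strand: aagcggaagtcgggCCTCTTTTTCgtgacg
Rpl38, chr11:114668565-114668594, plus strand: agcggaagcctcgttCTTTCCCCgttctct
Rpsa, chr9:120127751-120127780, plus strand: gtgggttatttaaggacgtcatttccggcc

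A run of C and at least 6 further pyrimidines on the gene's strand within 15 bases of an annotated start was present in 22 of the 47 genes (46.8%), and in 16.4% of all 27025 genes with a promoter entry. In the whole promoter entry, 250 bases before to 50 bases after the start and on both strands, CTTCCGG was present in 38.3% of the ribosomal protein genes and in 9.93% of all genes. TCTCGCGA was present in 19.1% and in 1.13%. AAGATGGC was present in 4.26% and 3.19%, TATAAA in 12.8% and 15.7%, and GGGCGG in 57.4% and 38.2%. A match of letters is not a binding site, and *Rpsa*, whose window is printed above without a run, may start elsewhere in these cells.

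The ribosomal protein genes were among the brightest on the array. The mean log2 signal over the 26 arrays ran from 5.42 for *Rpl39l* to 13.66 for *Rplp0*, and 43 of the 59 lay in the brightest 10% of the 35556 probe sets. The highest means after *Rplp0*, the central protein of the stalk, were those of *Rps6* (13.62), *Rpl21* (13.58), *Rps2* (13.48) and *Rpl28* (13.45). The lowest were those of *Rpl39l* (5.42), *Rpl3l* (6.29), *Rpl10l* (7.01), *Rps4l* (7.41) and *Rplp2* (7.76), and 4 of these 5 are paralogs with the suffix l. Signals of different probe sets depend on their probes and give no order of mRNA amount. The spread within groups was small, with a median residual SD of 0.121 for the 59 genes beside 0.188 for all probe sets. The standard error of a difference had a median of 0.107 on the log2 scale.

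The median of the 59 genes was lower on the untreated arrays of 72 h than on those of 0 h. It was 12.12, 12.38 and 12.17 in the 3 replicates of 0 h and 11.72, 11.66 and 11.70 in the untreated ones of 72 h, so the lowest array at 0 h lay above the highest at 72 h. In TNF-treated cells at 72 h it was 12.05 and 11.87, between both groups. In TNF-treated cells it did not go down at every step. Relative to 0 h, the median gene of untreated cells stood at 97.4%, 87.1%, 76.6% and 75.4% after 6, 24, 48 and 72 h, and that of TNF-treated cells at 103%, 91.4%, 83.5% and 85.9%. These percentages are relative to the other transcripts of the same array, since the arrays were brought to a common distribution, and in bulk RNA fewer cells of a type and less RNA per cell cannot be told apart.

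**Figure D1:**
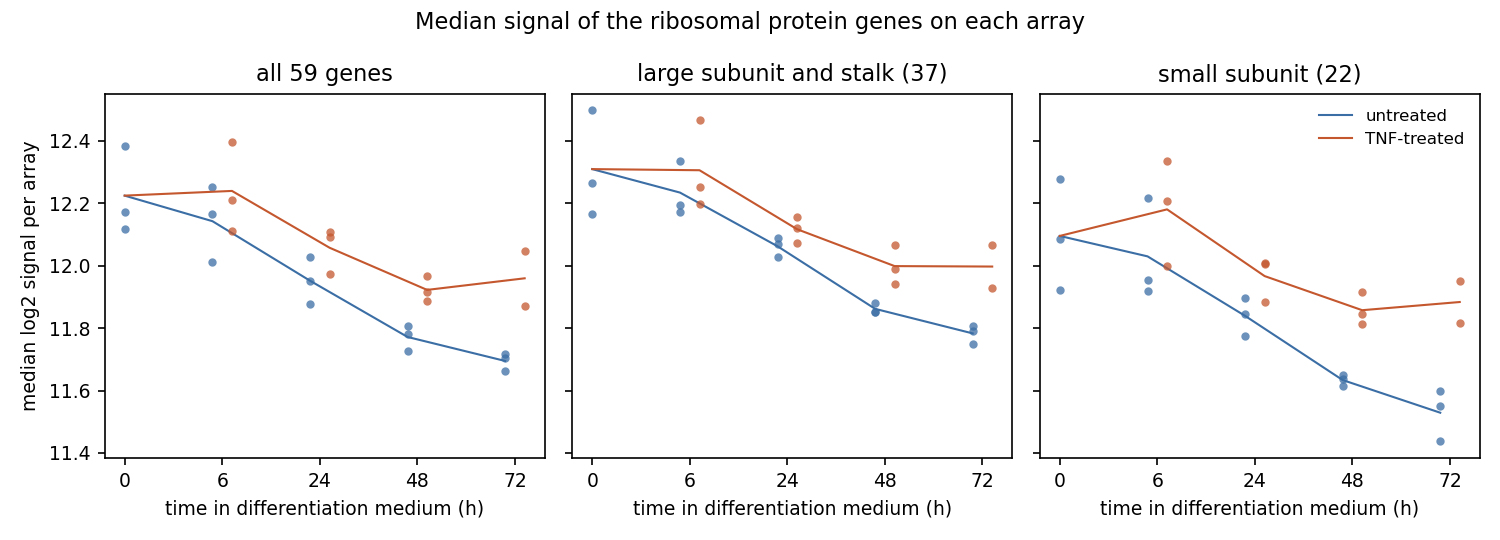
Each point is 1 array and shows the median log2 signal (vertical axis) of all 59 ribosomal protein genes, of the 37 of the large subunit and stalk, and of the 22 of the small subunit, against time (horizontal axis, h; steps not to scale). Lines join group means, and both start from the untreated arrays at 0 h. The untreated medians of the 59 genes fall from between 12.12 and 12.38 at 0 h to between 11.66 and 11.72 at 72 h, while both TNF-treated arrays at 72 h lie at 11.87 and 12.05.

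The first comparison asked how ribosomal protein mRNAs change as untreated NSPs become astrocytes. At 6 h none of the 59 genes passed the test in either direction (limma, q under 0.05), beside 3.03% of all probe sets called lower and 4.64% called higher. At an unadjusted p under 0.05, 1 gene was lower (7.07% of all probe sets). The median change was -0.04 on the log2 scale, beside -0.02 for all probe sets. The gene with the lowest q was *Rpl22*, an RNA-binding protein of the large subunit, at -0.29 (SE 0.110, q = 0.0975). With the replicate number as a block, for which the arrays of both times were paired, *Rpl22* was called (q = 0.0361). Its log2 signal read 10.63, 10.59 and 10.54 on the arrays of 0 h and 10.55, 10.04 and 10.28 on those of 6 h, where replicate 1 overlapped with the first group.

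From 24 h on, the calls went 1 way. At 24 h 16 of the 59 genes fell and none rose, beside 6.51% of all probe sets called lower and 10% called higher, with a median of -0.20 (all probe sets -0.05). At 48 h 40 fell and none rose (6.97% and 8.99% of all probe sets) with a median of -0.38 (all probe sets -0.04). At 72 h 45 fell and none rose (10.2% and 12.6% of all probe sets) with a median of -0.41 (all probe sets -0.05), and in 50 genes the untreated arrays of 72 h lay wholly below those of 0 h (14.1% of all probe sets). The brightest 10% of all probe sets had a median of 0.05 at 72 h, with 628 of 3556 lower and 897 higher.

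The calls rested on some arrays more than on others. The 24 h count fell from 16 to 5 without replicate 2 at 0 h, without replicate 2 at 24 h and likewise without replicate 3 at 24 h. Without replicate 2 at 0 h, whose median of 12.38 stood above both other arrays of its group, 30 genes fell at 48 h and 37 at 72 h, and the 72 h median was -0.33. Without all arrays of replicate 3, 8 genes fell at 48 h and 25 at 72 h. With a fit of only the arrays compared, which estimates the spread from 6 arrays, the count was 0 at 24 h, 1 at 48 h and 19 at 72 h.

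Genes of mitosis and replication differed between the arrays of 0 h, and 6 of 17 fell by 72 h (10.2% of all probe sets). The mean log2 signal of the 17 was 8.13, 11.73 and 10.24 in replicates 1, 2 and 3 at 0 h, and between 7.93 and 8.57 in untreated cells at 72 h. Their order over the 3 arrays at 0 h was the order of the ribosomal protein medians, and at 6 h it was not. In untreated cells at 6 h the mean of the 17 was 8.02, 11.45 and 9.97 and the median of the 59 genes 12.17, 12.25 and 12.01, and with TNF the values were 8.01, 11.37 and 9.88 beside 12.21, 12.40 and 12.11. Within replicate 1, where the mitosis genes were at 8.13 already at 0 h and at 7.93 at 72 h, the median of the 59 genes differed by -0.40 between 72 and 0 h, beside -0.72 in replicate 2 and -0.47 in replicate 3. The part of the mitosis genes in the ribosomal protein values was not tested.

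Some markers of cell types moved as well between 0 and 72 h, beside 12.6% of all probe sets called higher and 10.2% called lower. Of 10 astrocyte markers 4 rose and 1 fell. Of 7 oligodendrocyte lineage genes 3 fell, with mean log2 signals from 9.30 to 9.79 at 0 h and from 8.63 to 8.99 after 72 h. Of 6 mural genes 2 rose and 1 fell (means 7.53 to 7.80 and 8.01 to 8.04). The mural gene that fell, *Cspg4*, is also 1 of the 3 oligodendrocyte lineage genes that fell. Of 8 microglial genes none was called (6.42 to 6.82 and 6.42 to 6.50). Of 7 stem and progenitor genes 3 (*Nes*, *Prom1* and *Vim*) rose and *Hes5* fell (means 11.08 to 11.52 and 11.37 to 11.43). Of 8 neuronal genes *Dcx* rose and *Snap25* fell (8.19 to 8.37 and 8.12 to 8.77), and of 6 endothelial genes *Kdr* rose (6.80 to 7.29 and 6.91 to 6.94). The part of these cell types in the ribosomal protein values was not tested.

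The small subunit had the larger median change. At 72 h 17 of its 22 genes fell, with a median of -0.52, and 28 of the 37 genes of the large subunit and stalk, with a median of -0.35. The difference between the subunits was not tested. The 5 largest changes among the genes called were those of *Rpsa*, *Rpl13*, *Rps19*, *Rps29* and *Rpl23a*.

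*Rpsa*, a small-subunit protein also described as a laminin receptor precursor, fell the most. Its log2 signal started at 11.69, 12.64 and 12.18 in the untreated arrays of 0 h, passed through 11.75, 12.46 and 11.92 (6 h), 11.90, 11.85 and 11.60 (24 h) and 11.33, 11.33 and 11.42 (48 h), and ended at 11.24, 11.05 and 11.20 (72 h). All arrays of 48 and 72 h lay below all of 0 h, which were spread over almost 1 log2 unit. The change after 24 h was -0.39 (SE 0.201, q = 0.117), after 48 h it was -0.81 (q = 0.00581), and after 72 h it reached -1.01 (q = 0.000605).

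*Rpl13*, a large-subunit protein, read 11.23, 11.57 and 11.31 on the arrays of 0 h and 10.55, 10.46 and 10.43 on those of 72 h, with no overlap between the groups. It fell by 0.46 within 24 h (SE 0.127, q = 0.0110), by 0.82 within 48 h and by 0.89 within 72 h. *Rps19*, whose human counterpart is mutated in Diamond-Blackfan anaemia, read 10.94, 11.32 and 11.17 on the arrays of 0 h and 10.45, 10.31 and 10.28 on those of 72 h. Its arrays did not overlap either, and the change was -0.80 (SE 0.118).

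*Rps29*, a small zinc-binding protein of the small subunit, went from 11.48, 11.93 and 11.86 to 11.12, 10.91 and 10.97 by 72 h, a change of -0.76 (SE 0.140). *Rpl23a*, which lies near the exit of the peptide tunnel, had the lowest q of all 59 genes at 72 h. It read 12.40, 12.53 and 12.41 on the arrays of 0 h and 11.76, 11.75 and 11.78 on those of 72 h, a change of -0.68 (SE 0.0872, q = 5.10e-06). The arrays of both genes separated fully between the times.

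**Figure D2:**
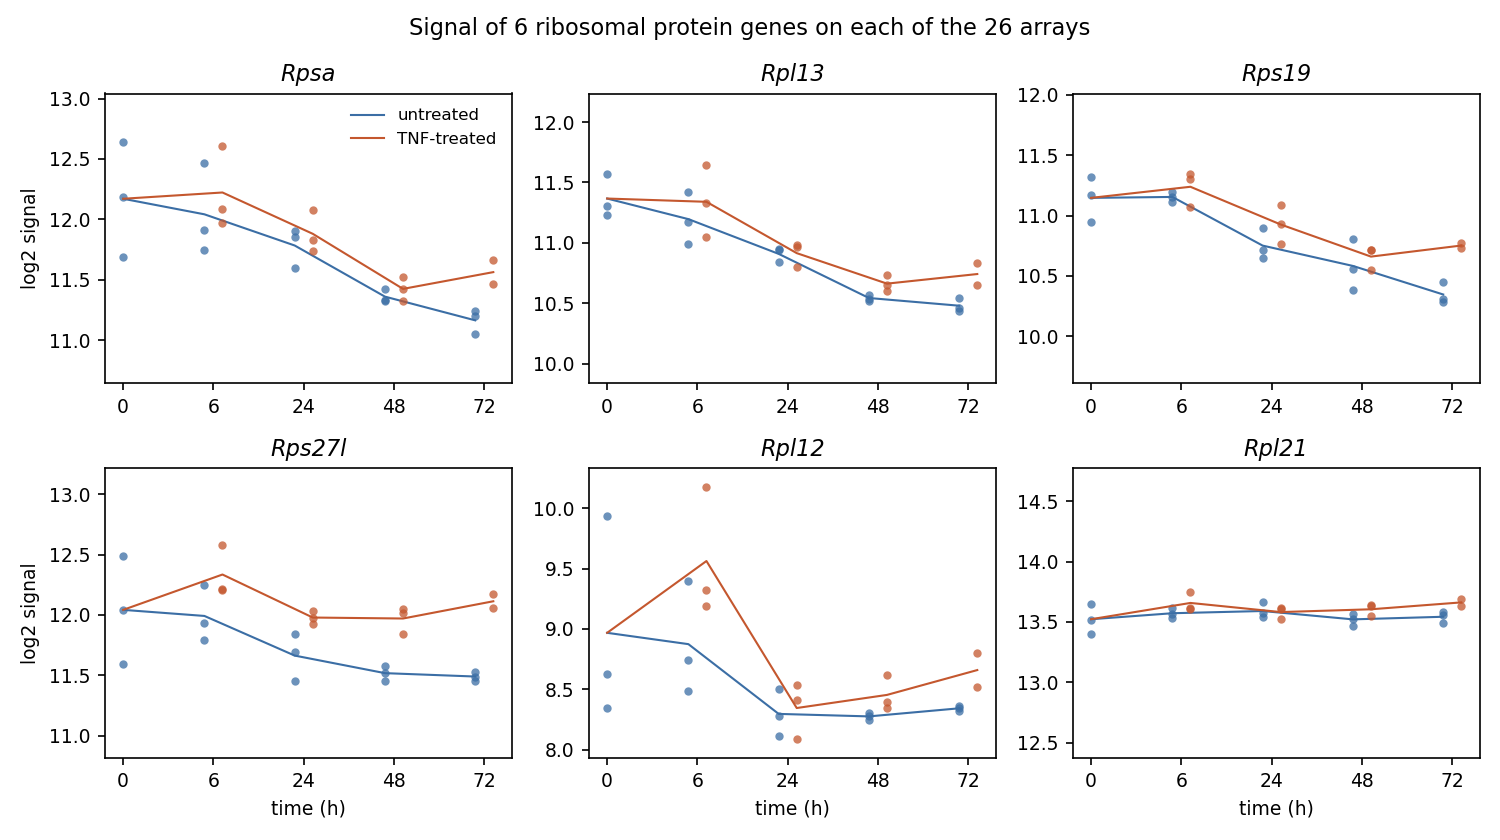
Log2 signal (vertical axis, each panel spanning the same number of log2 units) of 6 genes on each of the 26 arrays against time (horizontal axis, h; steps not to scale), with a point for each array and lines through group means. *Rpsa*, *Rpl13* and *Rps19* go down by 72 h in untreated cells. With TNF, the mean of *Rps27l* lies 0.29 above its level of 0 h at 6 h and near that level from 24 h on. *Rpl12* has its highest arrays at 0 and 6 h, and *Rpl21* stays between 13.40 and 13.75.

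The calls accumulated over the 3 later times. Of the 59 genes, 15 were lower at 24, 48 and 72 h, 25 at 48 and 72 h, 4 (*Rpl10*, *Rpl10a*, *Rpl19* and *Rplp1*) at 72 h alone, and *Rpl10l* at 24 and 72 h. The earliest group included *Rpl22* (-0.47 at 24 h, q = 0.00360), *Rpl4*, *Rpl5*, *Rpl13*, *Rpl24*, *Rps3*, *Rps19* and the stalk protein *Rplp0*. *Rpl5*, a large-subunit protein that binds Mdm2, went from 12.38, 12.50 and 12.42 at 0 h to 12.05, 11.99 and 12.04 at 72 h, a change of -0.41 (SE 0.0803). *Rps3*, which forms part of the mRNA entry site and is also described as a partner of NF-kB, went from 12.12, 12.24 and 12.11 to 11.62, 11.42 and 11.56, a change of -0.62 (SE 0.104).

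A further 14 genes were not called at any time. They were *Rpl12*, *Rpl14*, *Rpl21*, *Rpl30*, *Rpl34*, *Rpl38*, *Rpl39l*, *Rpl3l*, *Rpl41*, *Rps15*, *Rps15a*, *Rps2*, *Rps4l* and *Rps6*. For some of them brighter probe sets exist that name several genes and were not used. The mean log2 signal was 8.64 for *Rpl12*, 9.69 for *Rpl30*, 10.99 for *Rpl34* and 9.40 for *Rps15a*. On the probe sets not used it reached 13.22, 12.75, 12.94 and 11.19. The highest changes at 72 h were 0.02 for *Rpl21* (95% interval -0.14 to 0.18) and 0.01 for *Rpl41*, followed by *Rps2* at -0.03, *Rpl38* at -0.06 and *Rps6* at -0.07. *Rps6*, the substrate of the S6 kinases, read 13.62, 13.63 and 13.70 on the arrays of 0 h and 13.57, 13.59 and 13.60 on those of 72 h, so that its arrays did not overlap although the change was small (SE 0.0636, q = 0.257). *Rpl38*, known for its part in the translation of Hox mRNAs, read 12.47, 12.84 and 12.66 on the arrays of 0 h and 12.54, 12.65 and 12.61 on those of 72 h, with full overlap. *Rpl12*, a protein of the stalk base, read 8.63, 9.93 and 8.34 on the arrays of 0 h and 8.36, 8.34 and 8.32 on those of 72 h, and its change of -0.63 (SE 0.305, q = 0.0873) came with a single high array.

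**Figure D3:**
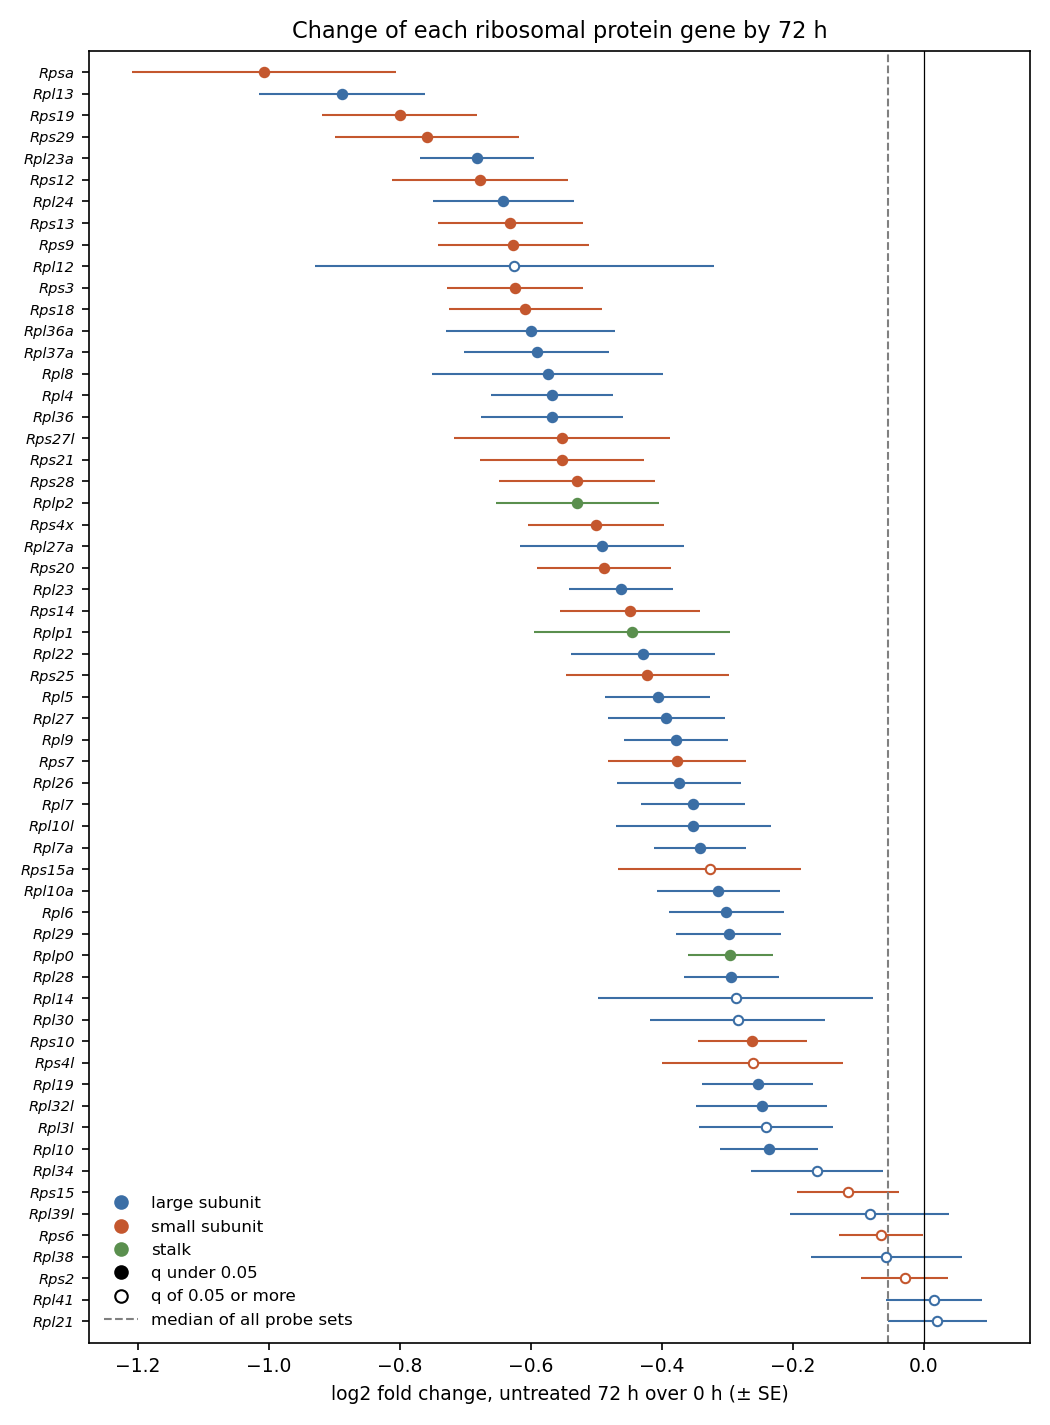
Log2 fold change of each of the 59 genes in untreated cells at 72 h over 0 h (horizontal axis), with bars of 1 SE. Blue marks the large subunit, orange the small subunit and green the stalk, filled points have q under 0.05, and the dashed line is the median of all probe sets. The points run from -1.01 for *Rpsa* to 0.02 for *Rpl21*, and the 45 filled points all lie below 0.

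All 3 stalk proteins, which recruit elongation factors to the ribosome, were called lower at 72 h. *Rplp0* went from 13.79, 13.87 and 13.74 to 13.49, 13.54 and 13.49 (-0.30, SE 0.0649), *Rplp1* changed by -0.45 (SE 0.149) and *Rplp2* by -0.53 (SE 0.125). *Rps25*, a small-subunit protein needed by some viral internal ribosome entry sites, fell by 0.42 at 72 h (SE 0.125, q = 0.0107). Its probe sets differed the most of any gene, over a range of 0.33.

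The 6 paralogs with the suffix l, which in several cases stand in for the common protein in testis or muscle, were called in part. At 72 h 3 of them fell (*Rps27l* by 0.55, *Rpl10l* by 0.35 and *Rpl32l* by 0.25), with a median of -0.25, beside 42 of the other 53 and a median of -0.43. At 24 h the medians lay the other way, at -0.28 for the 6 and -0.19 for the other 53, and neither difference was tested. Among partners, *Rpl10* was at -0.24 and *Rpl10l* at -0.35. *Rps4x*, the X-linked copy, was at -0.50, and *Rps4l*, annotated as a transcribed pseudogene, was at -0.26 (q = 0.107). Of these 6, *Rpl39l*, *Rpl3l*, *Rpl10l* and *Rps4l* had the lowest signals of all 59 genes, while *Rpl32l* had a group mean of 9.22 at 0 h.

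Among the genes with a mean log2 signal of 11 or more, the brighter ones had the smaller decreases, and the genes under 11 did not follow this order. At 72 h the 31 genes with a mean log2 signal from 11 to 13 had a median change of -0.50 and 30 were called, while the 11 genes at 13 or more had a median of -0.24 with 6 called, and the 17 genes under 11 had a median of -0.35 with 9 called. Over the 42 genes at 11 or more, Pearson's r between mean signal and change was 0.788 (Spearman's rho 0.791), and over all 59 genes r was 0.0543 (rho 0.305). These correlations are across genes measured on the same arrays, and genes are not independent replicates. The part of the signal in the result was not tested.

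**Figure D4:**
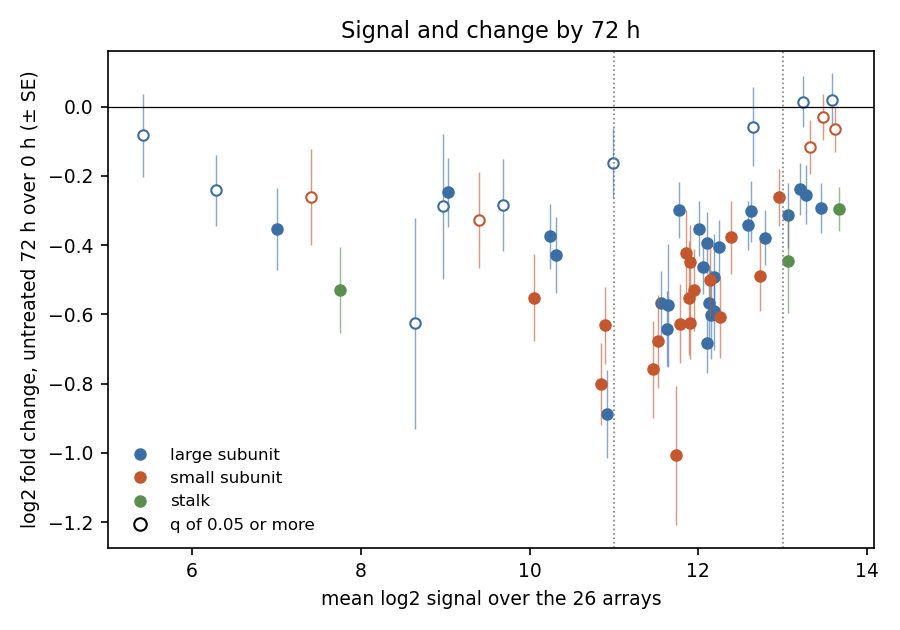
Each point is 1 of the 59 genes, with its mean log2 signal over the 26 arrays on the horizontal axis and its log2 fold change in untreated cells at 72 h over 0 h on the vertical axis (bars, 1 SE; filled, q under 0.05; colours, subunit). Dotted lines mark signals of 11 and 13. Between them the changes run down to -1.01, while to the right of 13 none is lower than -0.45.

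Most genes with several probe sets changed alike on all of them. For the 39 genes with several single-symbol probe sets, all probe sets of a gene changed in the same direction at 72 h in 36, and the range between them had a median of 0.0819. Over all 215 such probe sets, 177 were called lower, none higher, and the median was -0.47. Some probe sets of a gene were not separate measurements. The 3 of *Rpl41* changed by the same amount in every comparison, and several of *Rps12* had the same mean signal (11.52). Agreement between probe sets and the count of 177 thus rest in part on repeated values. With the mean over the probe sets of a gene, 24, 45 and 48 genes fell at 24, 48 and 72 h, beside 16, 40 and 45 with the brightest probe set. Ribosomal protein genes are known for many processed copies in the genome, and whether the probes also match such copies was not tested.

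Genes with and without the start-site run both fell. At 72 h 16 of the 22 genes with the run fell, with a median of -0.33, and 20 of the 25 without it, with a median of -0.41. Of those printed above, *Rpl13*, *Rps18*, *Rpl27a* and *Rpl7a* carry the run and fell, by 0.89, 0.61, 0.49 and 0.34, while *Rps6* and *Rpl38* carry it and were not called. With CTTCCGG 12 of 18 fell, and without it 24 of 29. With TCTCGCGA 6 of 9 fell, and without it 30 of 38.

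The second comparison asked whether TNF changes these mRNAs at a given time. None of the 59 genes was called in either direction at 6, 24, 48 or 72 h (limma, q under 0.05), beside 0.326%, 0.863%, 1.04% and 1.15% of all probe sets. TNF itself acted in these cultures, since 7 of 8 known NF-kB targets were called higher at 6 h and all 8 from 24 h on, *Nfkbia* by 2.62 at 72 h (SE 0.160). The lowest q of any ribosomal protein gene was 0.739, 0.996, 0.260 and 0.125 at the 4 times.

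Below the threshold the values leaned upward. Of the 59 genes, 54, 52, 53 and 55 had a value above 0 at the 4 times, beside 14484, 18831, 15785 and 16189 of all 35556 probe sets. The medians were 0.09, 0.04, 0.10 and 0.20, beside -0.04, 0.01, -0.02 and -0.02 for all probe sets. The 59 genes were read on the same arrays, and their deviations from the group means correlated with each other (median 0.339). Their counts are thus not counts of independent observations. At an unadjusted p under 0.05, 3, 0, 6 and 15 genes were higher (2.51%, 3.08%, 3.53% and 4.44% of all probe sets) and none was lower (2.46%, 2.54%, 2.98% and 5.13%). At 72 h the TNF-treated arrays lay wholly above the untreated ones in 45 genes (19% of all probe sets), and at 48 h in 19 (6.41%). Among the brightest 10% of all probe sets this held for 1124 of 3556 at 72 h and for 357 at 48 h, with medians of 0.04 and 0.02. With 2 TNF-treated arrays at 72 h, the 95% intervals were wide, and over the 59 genes their lower limits had a median of -0.04 and their upper limits one of 0.45.

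The medians moved with single arrays. At 6 h the median effect was 0.04 without TNF-treated replicate 2 and 0.05 without untreated replicate 3. At 24 h it was 0.01 without TNF-treated replicate 1 and 0.11 without TNF-treated replicate 2. At 72 h it was 0.16 without TNF-treated replicate 1 and 0.26 without TNF-treated replicate 2. At 72 h astrocyte markers were lower in value with TNF, with a mean log2 signal over 10 markers of 11.61 and 11.73 beside 12.06, 11.93 and 12.21 in untreated cells, and none of the 10 was called. The part of these markers in the ribosomal protein values was not tested.

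*Rps27l*, a paralog of *Rps27* known as a target of p53, had the highest value at 24, 48 and 72 h. After 72 h its log2 signal was 12.17 and 12.06 with TNF and 11.48, 11.46 and 11.53 without. After 48 h it was 11.84, 12.05 and 12.02 with TNF and 11.45, 11.52 and 11.58 without. The groups did not overlap at either time. The effect was 0.34 after 6 h (SE 0.164, q = 0.894) and 0.32 after 24 h (q = 0.996). It was 0.45 after 48 h (q = 0.373) and 0.62 after 72 h (SE 0.184, q = 0.125, 95% interval 0.24 to 1.01).

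The next highest values at 72 h were those of *Rps9*, *Rps19*, *Rpsa* and *Rpl24*. *Rps9*, a core protein of the small subunit, was at 11.97 and 11.64 with TNF and at 11.54, 11.42 and 11.22 without (0.41, q = 0.158). *Rps19* was at 10.77 and 10.73 with TNF and at 10.45, 10.31 and 10.28 without (0.41, q = 0.183). *Rpl24*, which takes part in joining of the subunits, was at 11.73 and 11.54 with TNF and at 11.21, 11.28 and 11.26 without (0.39, q = 0.151). None of these groups overlapped, as for the 0.40 of *Rpsa* (11.66 and 11.46 with TNF).

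The lowest values at 72 h were those of *Rps4l* (-0.10), *Rpl41* (-0.09), *Rpl3l* (-0.07), *Rps2* (-0.04) and *Rpl39l* (0.02). *Rpl41*, *Rps2* and *Rps6* were thus near 0 both over time and with TNF. *Rpl21*, also near 0 over time, was at 13.69 and 13.63 with TNF and at 13.56, 13.49 and 13.58 without. The small subunit had a median of 0.28 at 72 h and the large subunit and stalk one of 0.18, a difference that was not tested.

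At 6 h the highest value was that of *Rpl12*, read on its dim single-symbol probe set, at 0.69 (SE 0.305, q = 0.877). Its log2 signal was 10.18, 9.19 and 9.32 with TNF and 9.40, 8.48 and 8.74 without, so the groups overlapped, while each TNF-treated array stood above the untreated array of its number. Next came *Rps27l* (0.34), *Rpl34* (0.27, q = 0.739), *Rpl8* (0.25) and *Rpl14* (0.24), and lowest *Rps4l* (-0.26), *Rpl3l* (-0.06), *Rplp2* (-0.03), *Rpl39l* (-0.01) and *Rplp1* (-0.00079). At 48 h *Rpl24* followed *Rps27l*, with 0.33 (SE 0.108, q = 0.260), then *Rpl14* (0.29), *Rps28* (0.27) and *Rpl37a* (0.23), and the lowest were *Rps4l* (-0.19), *Rpl3l* (-0.14), *Rpl10l* (-0.11), *Rps2* (-0.08) and *Rplp1* (-0.01). At 24 h the values ran from -0.06 for *Rpl38* to 0.32 for *Rps27l*.

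**Figure D5:**
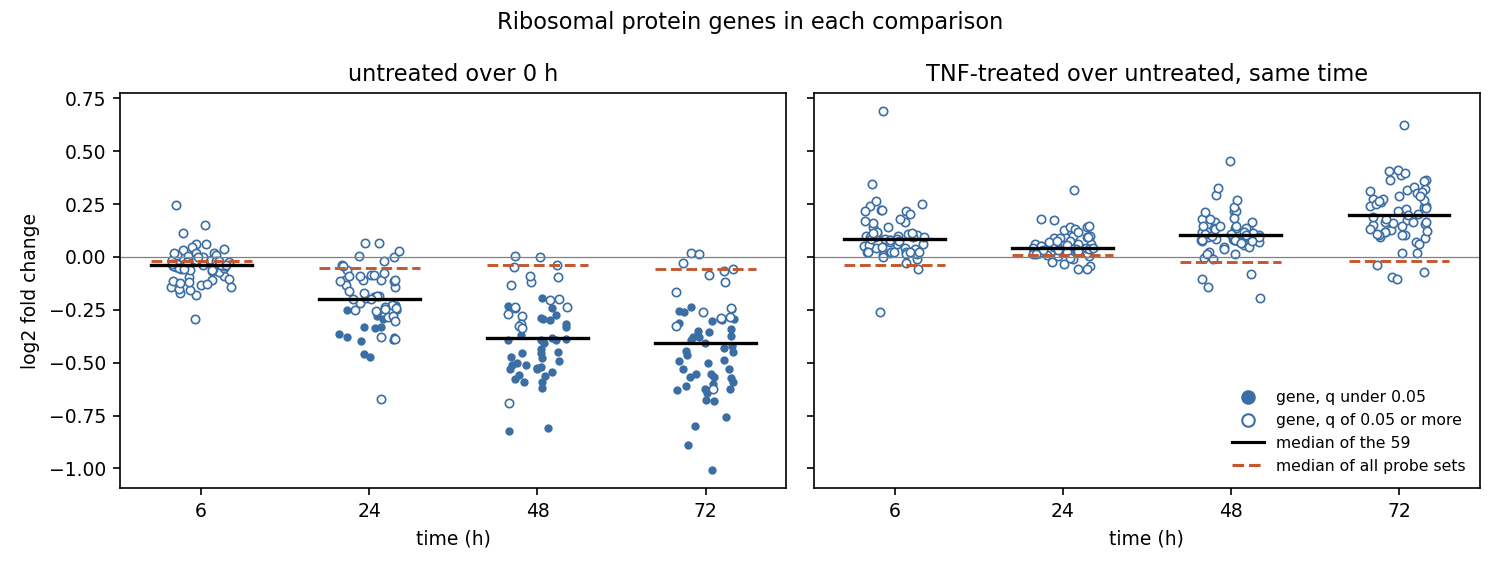
Log2 fold changes (vertical axis) of the 59 genes at 6, 24, 48 and 72 h, in untreated cells over 0 h (left) and in TNF-treated over untreated cells of the same time (right). Filled points have q under 0.05, black lines are the medians of the 59 genes and dashed lines those of all probe sets. On the left the median goes from -0.04 to -0.41, and on the right, where no point is filled, it lies between 0.04 and 0.20.

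The third comparison asked whether the TNF effect itself differed between times. None of the 59 genes was called at 24, 48 or 72 h against 6 h, beside 0.0253%, 0.104% and 0.124% of all probe sets. The medians of the differences were -0.03, 0.01 and 0.11. At an unadjusted p under 0.05 the count was 1 at 24 h (*Rps4l*, 0.41, 95% interval 0.00 to 0.82) and 0 for the other two, beside 1.68%, 1.7% and 1.38% of all probe sets higher and 0.984%, 1.18% and 1.57% lower. These comparisons share the arrays of 6 h. At 72 h the values ran from -0.37 for *Rpl12* to 0.32 for *Rps19*.

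Other genes of translation were counted in the same way, with no test between the lists. Of 14 further mRNAs known for a TOP tract, 6 fell at 24 h and 7 at both 48 and 72 h (6.51%, 6.97% and 10.2% of all probe sets), none rose, and the median at 72 h was -0.22. The largest changes were those of *Eef1b2*, an exchange factor for the elongation factor that carries tRNA (-0.67, SE 0.131), *Eif3f*, an initiation factor subunit (-0.59, SE 0.0871), and *Eif4b*, a helper of the initiation helicase (-0.48, SE 0.0968). *Eif3f* read 12.55, 12.53 and 12.69 on the arrays of 0 h and 11.95, 12.02 and 12.04 on those of 72 h. At 72 h with TNF it was at 12.33 and 12.33, an effect of 0.33 (q = 0.124).

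Of 33 initiation and elongation factors, some of which are also among those 14, 7 fell and 3 rose at 72 h (10.2% and 12.6% of all probe sets). The highest was *Eif5b*, which promotes joining of the subunits, at 0.71 (SE 0.149). *Eif5b* was also the only one of the 33 called with TNF at 72 h, where it was lower (-0.72, SE 0.166, q = 0.0339). Of all probe sets 1.15% were called with TNF at 72 h, and the TNF-treated group held 2 arrays. Relatives outside the rule went the same way as the 59 genes, with *Rps3a1* at -0.72 (SE 0.129) and *Fau*, the precursor of a small-subunit protein, at -0.27 (SE 0.0727) both called at 72 h, and *Rpl7l1* at -0.13 (q = 0.233).

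Of 77 proteins of the mitochondrial ribosome, a separate particle that translates the mitochondrial genome, 10 fell and 1 rose at 72 h, with a median of -0.14. The share called lower was near the 10.2% of all probe sets. *Mrps6* was the gene that rose, by 1.18 (SE 0.144), and *Mrps10* (-0.62, SE 0.102) had the largest decrease. None was called with TNF at any time (0.326%, 0.863%, 1.04% and 1.15% of all probe sets at the 4 times). With TNF, 71, 41, 57 and 69 of the 77 had a value above 0 at the 4 times. The medians were 0.14, 0.00, 0.06 and 0.16. Of all 35556 probe sets, 14484, 18831, 15785 and 16189 were above 0. At 72 h the TNF-treated arrays lay wholly above the untreated ones in 40 of the 77 (19% of all probe sets). Among the brightest 10% of all probe sets this held for 1124 of 3556. In untreated cells at 72 h the count called lower was 10 of 77 here and 45 of 59 for the cytoplasmic ribosome. Differences between these 2 lists, over time or with TNF, were not tested.

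Ribosome biogenesis factors, which process ribosomal RNA and assemble subunits in the nucleolus, had few calls, and their time course was not tested against that of the 59 genes. At 6 h in untreated cells 3 of 50 rose (*Sbds*, *Nop14* and *Gnl2*) and none fell (4.64% and 3.03% of all probe sets), with a median of 0.34, and the 3 largest values were those of *Gnl3* (0.87, q = 0.0653), *Nop58* (0.76, q = 0.141) and *Heatr1* (0.59, q = 0.0961). At 24 h 4 fell and 1 rose (6.51% and 10% of all probe sets), with a median of -0.23. At 72 h 7 fell and 1 rose (10.2% and 12.6%), with a median of -0.19 and with *Rrp1b* at -0.81 (SE 0.289), *Gar1* at -0.76 (SE 0.294) and *Sbds*, a factor of the late large subunit, at 0.77 (SE 0.120). With TNF at 6 h all 50 had a value above 0 (14484 of all 35556 probe sets), with a median of 0.28. The highest value was 0.57 for *Rrs1*, yet none of the 50 passed the test (0.326% of all probe sets). The medians of the list with TNF at the 3 later times were 0.03, 0.03 and 0.12. None was called at these times (0.863%, 1.04% and 1.15% of all probe sets).

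Of 27 genes of mTORC1 signalling, LARP1 and the MYC network, which govern ribosome production, 3 rose and 4 fell in untreated cells at 72 h, shares near the 12.6% and 10.2% of all probe sets. *Castor2*, a gene upstream of mTORC1, rose by 0.90 (SE 0.130), *Rptor*, the mTORC1 scaffold, fell by 0.64 (SE 0.0897), and *Mxd3*, a MAX partner, fell by 0.76 (SE 0.233). *Deptor*, an mTOR inhibitor, rose by 1.50 at 6 h (SE 0.257). None of the 27 was called with TNF at any time (0.326% to 1.15% of all probe sets).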

How the data were processed

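Total RNA was measured on Affymetrix MoGene 1.0 ST arrays. The authors deposited log2 signals, which they obtained by RMA in the R 3.3.1 package oligo (background correction, a common distribution for all arrays, summary to probe sets), so no count or sequencing depth exists and the number of arrays limits the precision. The values, from 2.30 to 14.61, were used as deposited. Symbols came from the platform annotation (21789 probe sets with 1 symbol, 1621 with several, 12146 with none), and all 59 genes matched RefSeq by gene ID.

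limma 3.58.1 in R 4.3.3 fitted 9 group means over 26 arrays without covariates. q-values over all 35556 probe sets used an own version of the Storey smoother, with a threshold of 0.05, and the procedure was tested on simulated data. Members and lists were chosen with earlier results of these data known, so lists are described by counts and medians without a test. Named genes were those called (the 5 largest where over 10), the 5 highest and lowest with TNF and at 72 h, the brightest and dimmest 5, those with known outside roles and the 3 largest of each list; others were named after their values were seen. Alternatives covered the threshold, Benjamini-Hochberg, the arrays fitted, scaling, dim probe sets, probe set choice, the replicate block and arrays left out. Same-numbered arrays counted as paired where every correlation of their deviations was over 0.1, which held for untreated cells at 6 h (0.503 to 0.679), 48 h and 72 h against 0 h and for TNF at 6 h (0.461 to 0.674).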

Additional observations from a re-analysis of the deposited data

How the results depend on the processing

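No called change took the other direction under any alternative, and medians that lay within 0.04 of 0 (untreated cells at 6 h, and the TNF effects of 24 and 48 h against 6 h) took both signs. Single genes were followed in the comparisons where the main fit or some alternative called them. Of their values 5279 kept their side of the threshold, 428 were no longer called and 167 became called. A value called in neither fit could change sign and still count as kept. The count of 16 genes lower at 24 h was 3 at q under 0.01, 10 with Benjamini-Hochberg, 0 with only the arrays compared, 8 with arrays centred on the median, 26 with cyclic loess, 28 with the replicate block and 38 with arrays centred on the brightest 10%. The 40 at 48 h became 25 at q under 0.01 and 1 with only the arrays compared, and the 45 at 72 h became 19 with only the arrays compared. At 6 h in untreated cells the count of 0 became 1 with cyclic loess and with the replicate block. For TNF at 72 h the count of 0 became 3 with only the arrays compared (*Rpl24*, *Rps19* and *Rps27l*) and 2 with the replicate block (*Rps14* and *Rps27l*). The block gave 46 at 48 h and 49 at 72 h and left TNF at 6, 24 and 48 h at 0. At 24 h in untreated cells and at 24 to 72 h with TNF not every pair was over 0.1, so the arrays did not count as paired. In replicates 1 and 2 the correlations with TNF were 0.384 and 0.471 at 24 h and 0.309 and 0.608 at 48 h. In replicate 3 they were 0.0263 and -0.0238, and the 2 pairs of 72 h had 0.0795 and -0.0156. In untreated cells at 24 h against 0 h they were 0.240, 0.312 and -0.0545. The TNF-treated array of 72 h titled replicate 2 is listed after the arrays of replicate 3. The block and the leave-outs follow its title, and which culture it came from was not tested.

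Leaving out arrays, singly or all of 1 replicate number (the latter chosen after seeing the data, as was centring on the brightest 10%), gave 1 to 23, 8 to 42 and 25 to 49 genes lower after 24, 48 and 72 h, 0 to 1 after 6 h, and 0 to 1 higher with TNF at 72 h. The medians ran from -0.28 to -0.12, -0.41 to -0.27 and -0.46 to -0.33 at 24, 48 and 72 h, from -0.10 to 0.02 at 6 h, and from 0.16 to 0.26 for TNF at 72 h. Without all arrays of replicate 2, 12 genes were lower at 48 h and 31 at 72 h, and without those of replicate 3, 8 and 25. The causes were not tested. Centring on the brightest 10% moved the median of all probe sets to -0.14, -0.12 and -0.14 after 24, 48 and 72 h, and the median of the 59 genes to -0.29, -0.47 and -0.49.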
